A study of Oryza sativa with 16 samples.

Results

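Expression in the panicles of DTY-IL and Swarna plants was compared under drought at the reproductive stage. The comparison used the 4 DTY-IL drought libraries and the 4 Swarna drought libraries, 8 of the 16 panicle libraries in the count table, and every gene with at least 10 counts in total, which was 33698 of 55801 genes. Plants of both groups grew singly in greenhouse pots in which soil water was kept at 75% of field capacity over the first 9 days of stress and lowered to 50% over the last 3, and whole panicles were taken on day 12. Well-watered panicles of both genotypes, collected on the same day, were used to ask whether a difference was also present without drought.

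The recurrent parent, Swarna, is an indica rice that yields poorly when water is short. DTY-IL, which the sample names call Nil-95, was bred by crossing it with the tolerant variety N22 and keeps pieces of the N22 genome. It is a single line, so a fragment that bears on drought and one that happens to lie elsewhere in the line were compared together. Introgression lines are used in rice because quantitative trait loci for grain yield under drought (qDTY) can be moved from a tolerant donor into a high-yielding variety. Genes inside a donor fragment carry donor alleles in every tissue and treatment, whereas genes outside the fragments should carry the same allele in both genotypes. The text read here places N22 fragments of DTY-IL on chromosomes 1, 3, 4, 8, 9 and 10 (the table of their positions was not used here), the largest on chromosome 1, where it spans the locus qDTY1.1, and the next on chromosome 3, where it covers part of qDTY3.2. The panicle is the sink tissue in which drought at the reproductive stage lowers grain number.

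Counts were estimated against the transcripts of the Nipponbare reference, so a low count can mean little RNA, a sequence that differs from the reference or a gene that the genotype lacks, and these cannot be told apart. In whole panicles, fewer cells of a type and less RNA per cell cannot be told apart either. Reads that fit several similar genes are shared among them, so counts of near-identical copies are uncertain. The loci are identified by their rice locus numbers, which give the chromosome and the order of the genes. The sources used here annotate 8 of the loci described, the study's longer gene tables for the panicle were not used here, and the other loci are described by position and value. A count given below is normalized for library size with TMM factors, and a log2 fold change is DTY-IL minus Swarna from 1 edgeR quasi-likelihood fit of 15 libraries.

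Total counts ranged from 24677520 to 27971467 over the 8 drought libraries and from 26308434 to 31080042 over the 7 control libraries used. One Swarna control library, replicate 3, did not enter the fit. The nearest library of each of the 15 belonged to its own group. In the drought groups the mean distance of a library to the others of its group was 144 to 158 on the log2 CPM scale, and no library stood apart. The mean distance of these libraries to the drought libraries of the other genotype was 178 to 207. DTY-IL control replicates 2 and 4 lay closer on average to the Swarna controls, at 147 and 145, than to their own group, at 154 and 165. Every other library lay closer to its own group. DTY-IL control replicate 3, at 213 against 154 to 165 for the other DTY-IL controls, lay farther from its group, and without it 1538 genes passed the criteria below.

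Under drought 1131 genes (3.36% of those tested) were differentially expressed genes (DEGs) between the genotypes, that is, the log2 fold change was 1 or more in size and the adjusted p-value did not exceed 0.05. Of these, 705 were higher in DTY-IL (2.09% of genes tested) and 426 were lower (1.26%), so 62.3% of the DEGs were higher in DTY-IL, although 49.4% of all genes tested had a positive log2 fold change. On the adjusted p-value alone 1684 genes passed, and 7298 had an unadjusted p below 0.05. In 1014 of the DEGs (89.7%) the ranges of the 4 DTY-IL and the 4 Swarna libraries did not overlap, against 13.3% of all genes tested. This share follows in part from the test itself.

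The median absolute log2 fold change was 2.12 among the DEGs and 0.37 among all genes tested. It was 1.97 among the DEGs when the 125 that had no count in any drought library of one genotype were set at their lower bound. The fitted log2 fold change was 2 or more in size in 610 DEGs and 4 or more in 272. The DEGs had a lower median level, 68.5 normalized counts over the drought libraries against 132 over all genes tested, with an upper quartile of 241. The level is a mean over both genotypes, so a gene near 0 in one of them has a lower level for that reason. DEGs higher in DTY-IL had a median of 57.0 counts and those lower a median of 104.

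The count of DEGs depended on the libraries and on the fit. Leaving out Swarna drought replicate 3 gave 626 DEGs, a fit of the 2 drought groups alone gave 657, and DESeq2 gave 1951. The share higher in DTY-IL was 62.3%, 58.4% and 61.8% in these fits, and over all fits it ranged from 58.4% to 70.5%, the highest without DTY-IL drought replicate 2. Of the 1131 DEGs, 545 (48.2%) were called again in each of the 15 fits that left out one library.

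The well-watered libraries, which share no sample with the drought libraries but enter the same fit, gave 371 DEGs between the genotypes (1.1% of genes tested). Of these, 277 were also DEGs under drought, which was 74.7% of the control DEGs and 24.5% of the drought DEGs. All 277 differed in the same direction in both conditions, 156 higher and 121 lower in DTY-IL. Their median absolute log2 fold change was 4.66 under drought and 4.69 in control, or 3.35 and 3.22 with genes that had no count in one genotype at their bound. Of the 371 control DEGs, 354 (95.4%) had the same sign under drought, against 55.0% of all genes tested.

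The other 854 drought DEGs, 549 higher and 305 lower in DTY-IL, were not called in control. Their median absolute log2 fold change was 1.84 under drought and 0.49 in control, and 572 of them (67.0%) had the same sign in both conditions. The 277 genes called in both conditions were called again more often when a library was left out. In each of the 15 such fits 247 of the 277 (89.2%) were called, and 298 of the 854 (34.9%). A gene that passed under drought and not in control is not thereby shown to differ between the conditions, and the difference itself is tested further on.

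**Figure D1:**
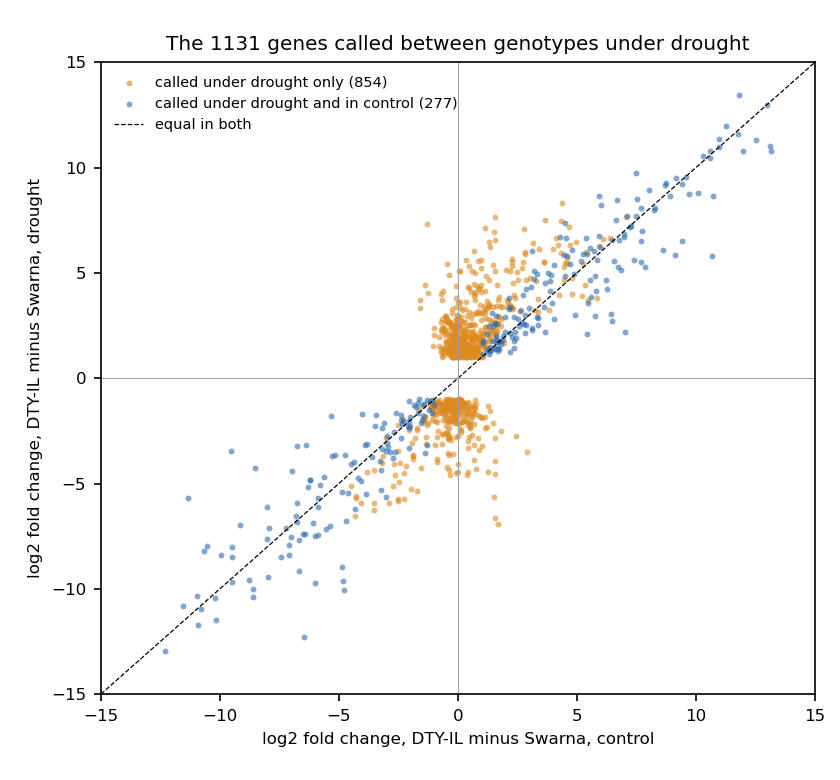
Log2 fold change between DTY-IL and Swarna in control (horizontal axis) and under drought (vertical axis) for each of the 1131 DEGs under drought, with 1 point per gene. The 277 genes called in both conditions (blue) lie along the dashed line of equal values, and most of the 854 called under drought alone (orange) lie near 0 on the control axis.

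Within the 854 genes, the drought effect was larger in Swarna than in DTY-IL on the fitted values. The 549 that were higher in DTY-IL under drought had a median log2 change from control to drought of -1.89 in Swarna and -0.46 in DTY-IL. The 305 that were lower in DTY-IL had medians of 1.97 in Swarna and 0.44 in DTY-IL. These changes are computed from the same drought libraries that chose the genes and are given as a description. Over all genes tested the medians were 0.0046 in Swarna and -0.03 in DTY-IL. Being medians of signed changes, these do not measure the size of the drought effect in either genotype.

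Some DEGs had no count in one genotype. In 76 DEGs all 4 Swarna drought libraries had 0 counts and in 49 all 4 DTY-IL drought libraries had 0. For 51 of these 125 genes the other genotype had at least 10 counts in each drought library, 24 higher and 27 lower in DTY-IL. Set against 3 counts per library, the limit that a count of 0 allows, the 24 were at least 4.54-fold to 439-fold higher in DTY-IL and the 27 at least 4.55-fold to 328-fold lower. These limits cover counting error only.

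Of the 51 genes, 49 (96.1%) were also called in control. Chromosomes 4 with 14, 1 with 12 and 11 with 10 held most of them. Of the 24 genes, 22 also had no count in any of the 3 Swarna control libraries, and of the 27, 19 had none in any of the 4 DTY-IL control libraries. Over all 125 genes with no count in one genotype, without the minimum of 10 counts in the other, 69 were called in both conditions and 56 under drought alone.

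The DEGs with the largest log2 fold changes had no count or very few counts in one genotype. Candidates were the 558 DEGs with a mean of at least 50 normalized counts over the drought libraries and no overlap between the groups. All 12 with the largest positive and all 12 with the largest negative log2 fold changes had at most 3 counts in every drought library of the lower genotype, and all 24 were called in control as well. Of the 12 higher genes 5 were on chromosome 11 and 4 on chromosome 1, and of the 12 lower genes 3 each were on chromosomes 4 and 11. None of the 24 is annotated by the sources used here.

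LOC_Os11g34810, on chromosome 11, had the largest fitted log2 fold change among the genes higher in DTY-IL. Such a fitted value against a group at 0 has no exact size, and a neighbouring locus with at most 1 count in any Swarna drought library had a higher mean under drought in DTY-IL, 1617 against 1385 normalized counts. LOC_Os11g34810 had 1494, 1252, 1285 and 1508 normalized counts in the DTY-IL drought libraries and 0 in all 4 Swarna drought libraries. It was at least 439-fold higher in DTY-IL under drought (adjusted p = 2.9e-09). In control it had 1507 to 1883 counts in DTY-IL, and 1 count in total in Swarna.

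LOC_Os11g34790, nearby on the same chromosome, had 962, 1137, 952 and 934 normalized counts in the DTY-IL drought libraries and 0 in every Swarna library of either treatment. It was at least 316-fold higher under drought (adjusted p = 6.9e-09). The drought and control libraries of DTY-IL overlapped, at 934 to 1137 and 905 to 1078 counts.

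LOC_Os04g10500, on chromosome 4, had the most negative fitted log2 fold change. It had 0 counts in the 4 DTY-IL drought libraries, and 1617, 112, 981 and 1234 normalized counts in the Swarna drought libraries. It was at least 328-fold lower in DTY-IL (adjusted p = 9.8e-05), and Swarna drought replicate 2 lay well below the other Swarna libraries. In Swarna control the counts were 3897 to 6356, all above those of the Swarna drought libraries, and in DTY-IL control at most 1.84.

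LOC_Os12g35465, on chromosome 12, which is not among the chromosomes for which a fragment is named above, had 0 counts in the 4 DTY-IL drought libraries. The Swarna drought libraries had 542, 632, 654 and 701 normalized counts, so the gene was at least 211-fold lower in DTY-IL (adjusted p = 9.5e-07). In control the DTY-IL libraries had 0 to 6.74 counts and the Swarna libraries 229 to 276.

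DEGs were unevenly spread over the 12 chromosomes. Against 3.36% of all genes tested, 5.86% of tested genes on chromosome 4 were DEGs (178 of 3037), 4.92% on chromosome 1 (221 of 4488), 4.63% on chromosome 11 (102 of 2202) and 4.15% on chromosome 9 (80 of 1927). The lowest shares were on chromosome 5 with 1.75% (48 of 2739), chromosome 12 with 2.04% and chromosome 2 with 2.31%. The direction varied less, from 50.0% of DEGs higher in DTY-IL on chromosome 5 to 69.0% on chromosome 12. Without Swarna drought replicate 3, chromosome 4 held 96 of the 626 DEGs.

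The chromosomes differed more in the DEGs that were also called in control. These made up 37.1% of the DEGs on chromosome 4, 35.0% on chromosome 9, 34.2% on chromosome 8, 30.4% on chromosome 11 and 30.3% on chromosome 1. They made up 4.17% on chromosome 5, 6.56% on chromosome 7, 7.14% on chromosome 6 and 9.41% on chromosome 2. Genes called under drought alone ranged from 1.65% of tested genes on chromosome 12 to 3.69% on chromosome 4, and those called in both conditions from 0.073% on chromosome 5 to 2.17% on chromosome 4.

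On the 6 chromosomes with a named N22 fragment 4.10% of 17639 tested genes were DEGs, 1.24% in both conditions and 2.86% under drought alone. On the 5 others apart from chromosome 11 2.21% of 13857 were DEGs, 0.195% in both and 2.01% under drought alone. Chromosome 11, also not among those named, was set apart with its values known. Including it would raise the shares for chromosomes without a named fragment. Chromosome 11 had 4.63%, with 1.41% in both and 3.22% under drought alone. Its values were closer to those of the chromosomes with a named fragment, of which chromosome 3 had 2.51%, below the share over all genes.

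**Figure D2:**
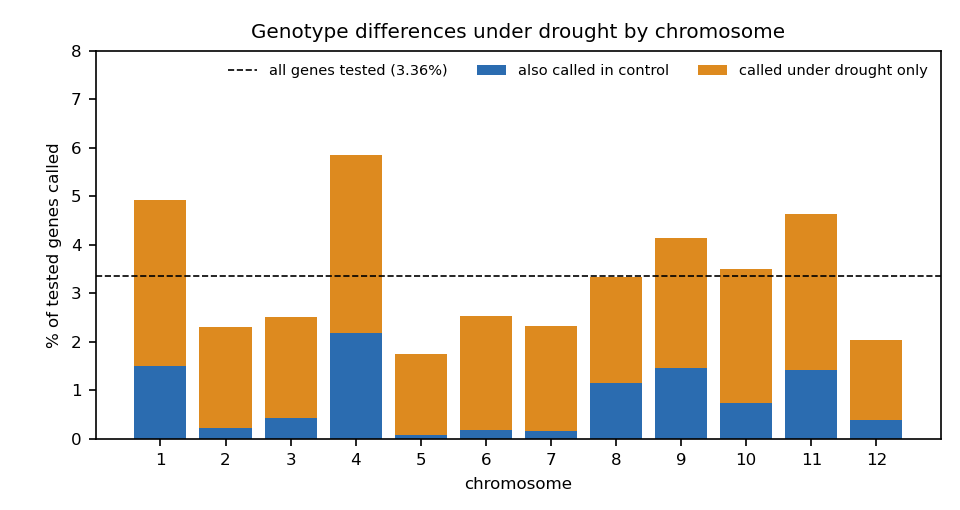
Percent of tested genes on each chromosome that were DEGs between DTY-IL and Swarna under drought, split into genes also called in control (blue) and genes called under drought alone (orange). The dashed line is the share over all genes tested, 3.36%, which chromosomes 1, 4, 9, 10 and 11 exceeded.

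To see where along the chromosomes the DEGs lay, the tested loci were taken in order in 343 windows of 100. The median window held 2 DEGs, 37 windows held none and the highest count was 19. The 19 windows with at least 10 DEGs held 260 of the 1131 (23.0%). The number of DEGs in windows with at least 10% DEGs was 111 and 160 when Swarna drought replicate 3 or 4 was dropped, 140 when DTY-IL drought replicate 1 was, 409 when DTY-IL control replicate 3 was, and 136 with no filter on low counts. Of these windows 7 were on chromosome 4, 4 on chromosome 1, 3 on chromosome 11, 2 on chromosome 9 and 1 each on chromosomes 3, 8 and 10, and none on chromosomes 2, 5, 6, 7 and 12.

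Chromosome 4 had a clear break. The first 10 windows, LOC_Os04g01070 to LOC_Os04g31110, held 125 DEGs among 1000 tested genes (12.5%), 62 of them also called in control. The remaining windows, LOC_Os04g31120 to LOC_Os04g59630, held 53 among 2037 (2.60%), of which 4 were also called in control. In the control libraries alone 7.5% and 0.295% of the genes in these stretches were DEGs. The position of the break was chosen after the counts were seen.

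Chromosome 1 was divided in a similar way. The first 19 windows, LOC_Os01g01010 to LOC_Os01g37140, held 44 DEGs among 1900 tested genes (2.32%), none of them called in control. From LOC_Os01g37200 to LOC_Os01g74670 there were 177 among 2588 (6.84%), and 67 of them were also called in control. Control DEGs made up 0.263% and 3.55% of the tested genes. This break too was chosen after the counts were seen. Together the stretches of chromosomes 1 and 4 with more DEGs held 10.6% of the genes tested, 26.7% of the drought DEGs and 46.6% of the DEGs called in both conditions. These shares follow in part from the choice of the breaks.

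**Figure D3:**
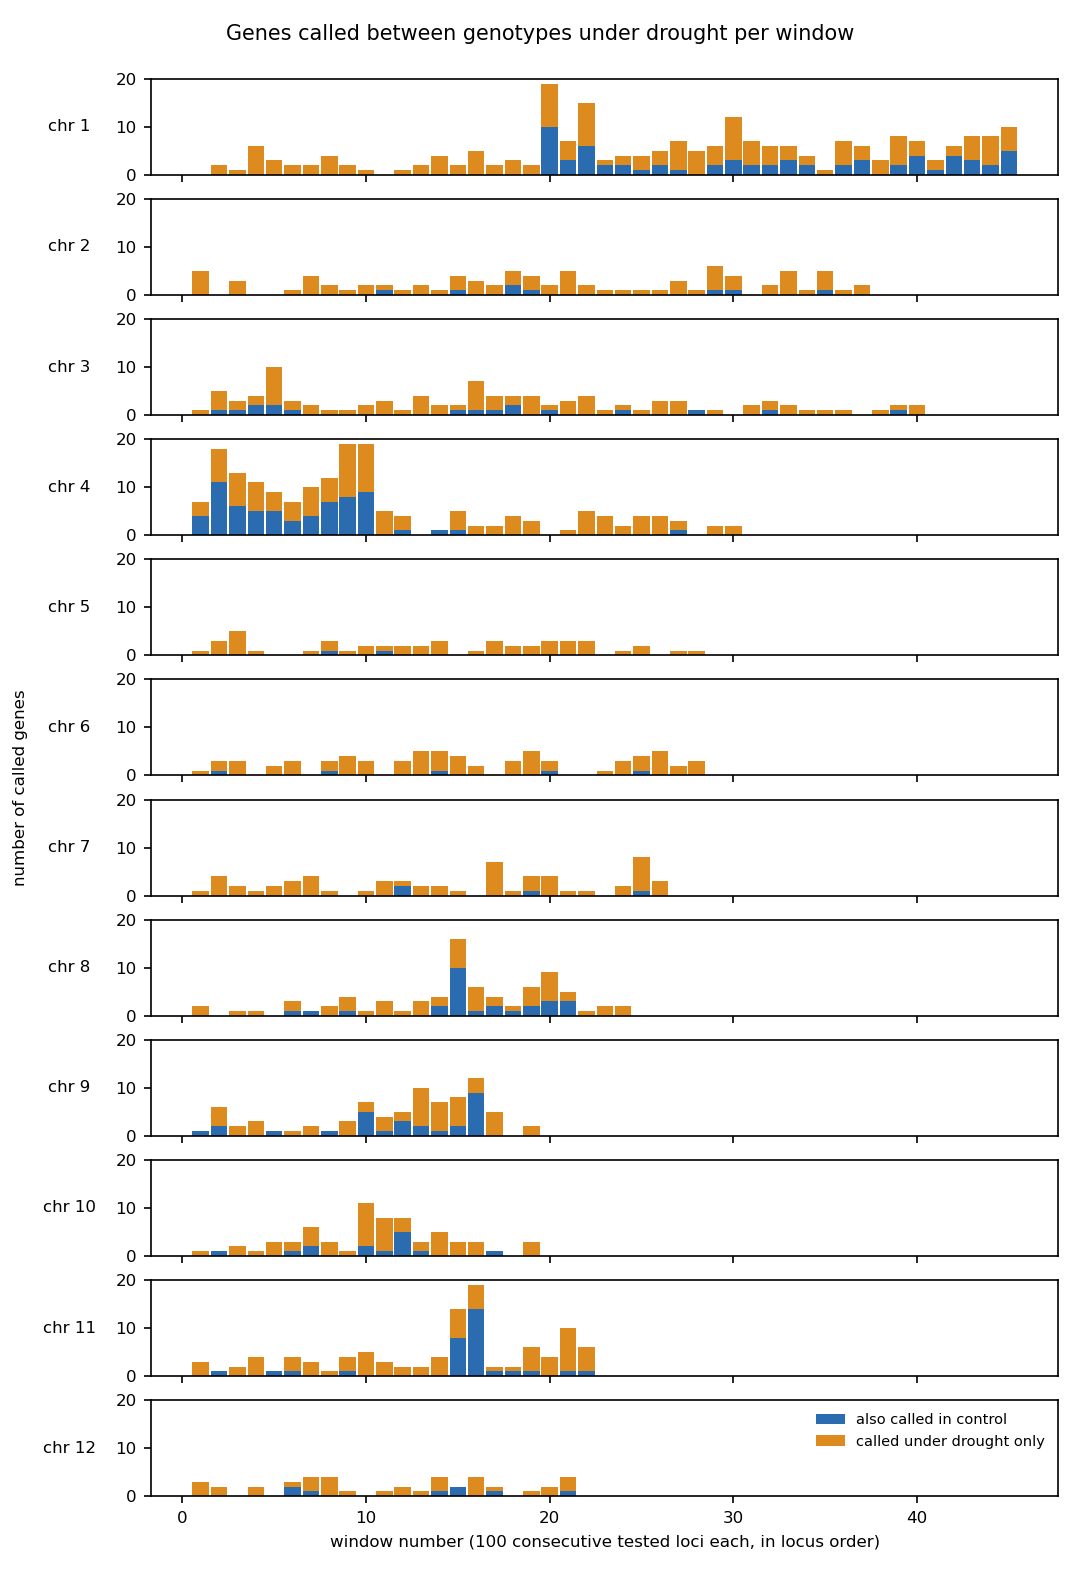
Number of DEGs under drought in each window of 100 consecutive tested loci, in locus order (horizontal axis), with 1 row per chromosome. Blue parts are genes also called in control and orange parts genes called under drought alone. The largest blue count is 14, in window 16 of chromosome 11, followed by 11 in window 2 of chromosome 4, and the windows of chromosome 1 before window 20 have no blue part.

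Among the windows with 19 DEGs, LOC_Os04g26190 to LOC_Os04g28580 had 16 higher and 3 lower in DTY-IL, and LOC_Os04g28590 to LOC_Os04g31110 had 10 higher and 9 lower. The window LOC_Os01g37200 to LOC_Os01g39370 had 11 higher and 8 lower, with 10 of the 19 called in control. On chromosome 11 the window LOC_Os11g34830 to LOC_Os11g36620 had 10 higher and 9 lower, with 14 of the 19 called in control. The window before it, LOC_Os11g32500 to LOC_Os11g34824, had 14 DEGs, all higher in DTY-IL. These 2 windows of chromosome 11 held 33 DEGs among 200 tested genes (16.5%), and the rest of the chromosome 69 among 2002 (3.45%). The 2 windows were picked because each held at least 10 DEGs, so this contrast follows in part from the choice. On chromosome 8 the window LOC_Os08g31340 to LOC_Os08g33090 held 16 DEGs, 8 in each direction.

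Windows were also ranked by their number of control DEGs. The control contrast uses other libraries than the drought contrast, but both come from 1 fit with a shared estimate of the spread, so the calls are not independent. The 20 windows with the most control DEGs, with 5 or more each and not all of those tied at 5, held 5.90% of the tested genes. In these windows 12.7% of tested genes were DEGs under drought, against 2.77% elsewhere. For genes called in both conditions the shares were 6.79% and 0.448%, and for genes called under drought alone 5.94% and 2.32%. Every gene called in both conditions is a control DEG, and the windows were picked for holding 166 of the 371 control DEGs. The shares for such genes therefore follow from the ranking, as does part of the 12.7%. These windows held 48.7% of the DEGs called in both conditions and 13.8% of those called under drought alone, so most of the latter lay outside them.

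Most DEGs had no DEG as a direct neighbour. Of the 1131, 914 stood alone among the tested loci, 75 pairs were adjacent, and 18 runs of 3 to 6 adjacent loci held 67. With 3.36% of tested genes called, most DEGs would stand alone even if scattered at random. The 914 therefore do not show a lack of clustering. In 53 of the 75 pairs and 12 of the 18 runs all members differed in 1 direction. The longest runs, of 6 loci, were LOC_Os01g73630 to LOC_Os01g73670, with 5 higher and 1 lower in DTY-IL, and LOC_Os11g34760 to LOC_Os11g34824, with 6 higher, all called in control. Both chromosome 11 genes described above lay in the latter. Adjacent loci can be copies of one another, between which reads are shared.

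Among the annotated loci, 3 lie in the qDTY1.1 region. LOC_Os01g67030 encodes an auxin-responsive protein with cytochrome b561 and DOMON domains, a kind of membrane protein that carries electrons. Its normalized counts were 8.19, 9.6, 3.18 and 9.42 in the DTY-IL drought libraries and 1.01, 0, 0 and 0 in the Swarna drought libraries. The groups did not overlap, but the levels were close to the counting limit, with 31 counts in all in DTY-IL and 1 in Swarna. The ratio of summed counts, scaled for library size, was 29.4, with a 95% interval of 4.90 to 1197 that covers counting error only (exact, Clopper-Pearson).

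LOC_Os01g67030 was a DEG under drought (adjusted p = 0.027, edgeR), and its adjusted p was above 0.05 when any one of 5 of the 8 drought libraries was left out, at 0.0529 to 0.0852. In control it had 0 to 7.27 counts in DTY-IL and 0.99 to 5.08 in Swarna, with a log2 fold change of 0.41 ± 0.85 (SE, adjusted p = 0.905). From control to drought the log2 fold change was 0.91 ± 0.73 in DTY-IL (SE, adjusted p = 0.353) and -3.01 ± 1.16 in Swarna (SE, adjusted p = 0.0479). The test of the difference between drought and control gave an adjusted p of 0.280. Its counts were too low for the stricter filter of edgeR, which left it untested.

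LOC_Os01g66820, an inactive receptor kinase, had 5.12, 19.2, 9.55 and 7.33 normalized counts in the DTY-IL drought libraries. It had 0, 1.03, 3.19 and 2.21 in the Swarna drought libraries, all below those of DTY-IL. The log2 fold change of 2.62 ± 0.80 (SE) did not pass (adjusted p = 0.074). It passed with DESeq2 (adjusted p = 0.0255) and without DTY-IL control replicate 3 (adjusted p = 0.0370).

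LOC_Os01g66120 encodes a no apical meristem (NAM) protein of the NAC family, plant transcription factors with roles in development and stress. It was the most abundant of the annotated loci under drought, at 2610, 3811, 9460 and 4447 normalized counts in DTY-IL and 6058, 10701, 13733 and 8373 in Swarna. The groups overlapped, and the log2 fold change of -0.94 ± 0.41 (SE) did not pass (adjusted p = 0.205). From control to drought it rose in both genotypes, by a log2 fold change of 1.88 ± 0.42 in DTY-IL (adjusted p = 0.0048) and 2.45 ± 0.48 in Swarna (adjusted p = 0.0011).

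Between the first and the last of these loci 73 genes were tested, and 5 were DEGs (6.85%), 4 higher and 1 lower in DTY-IL. Of the 5, 3 were also called in control. The share over the stretch of chromosome 1 in which they lie was 6.84%.

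On chromosome 3, LOC_Os03g03510 encodes a calcium/calmodulin-dependent protein kinase of the SnRK3 (CIPK) type, a family that acts with calcium sensor proteins. It lies in the qDTY3.2 region. Its normalized counts were 2114, 2189, 3220 and 2760 in the DTY-IL drought libraries and 4207, 6371, 6771 and 5524 in the Swarna drought libraries. Every DTY-IL library was below every Swarna library, with a log2 fold change of -1.15 ± 0.22 (SE, adjusted p = 0.0069).

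In control the DTY-IL libraries had 1496 to 2688 counts of LOC_Os03g03510 and the Swarna libraries 3002 to 4123, again without overlap. That difference, a log2 fold change of -0.81 ± 0.23 (SE), did not pass (adjusted p = 0.141). The difference between the 2 conditions was -0.34 ± 0.31 (SE, adjusted p = 0.694). Under drought the log2 fold change stayed between -1.28 and -1.05 whichever library was left out. In the window of 100 loci that begins with LOC_Os03g03510, 3 genes were DEGs, this locus included (3.0%, against 3.36% of all genes tested). The window before it held 5.

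Class III peroxidases are secreted enzymes that use hydrogen peroxide to oxidize cell wall compounds and can stiffen or loosen the wall. The study's text names those described here for the flag leaf. Of the 3 annotated here, LOC_Os07g48020 on chromosome 7 was a DEG. It had 166, 1119, 376 and 15.7 normalized counts in the DTY-IL drought libraries and 2.02, 7.19, 0 and 2.21 in the Swarna drought libraries. The groups did not overlap, although the DTY-IL libraries spread widely, from 15.7 in replicate 4 to 1119 in replicate 2. The log2 fold change was 7.13 ± 1.22 (SE, adjusted p = 0.0039).

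In control LOC_Os07g48020 had 0.945 to 23.6 counts in DTY-IL and 3.96 to 9.15 in Swarna, which overlapped. It rose from control to drought in DTY-IL, by a log2 fold change of 4.77 ± 1.02 (SE, adjusted p = 0.0036), and the change in Swarna was -1.23 ± 1.42 (SE, adjusted p = 0.505). The genotype difference was larger under drought by a log2 fold change of 6.0 ± 1.72 (SE), which did not pass over all genes tested (adjusted p = 0.210).

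The other peroxidases did not pass the test under drought, and their groups overlapped. LOC_Os03g13200 had 485, 73.3, 31.8 and 272 normalized counts in the DTY-IL drought libraries and 273, 62.7, 22.3 and 39.7 in the Swarna drought libraries (adjusted p = 0.618). LOC_Os07g01370 had 63.5, 28.8, 20.2 and 22 in DTY-IL and 428, 20.6, 46.7 and 24.3 in Swarna (adjusted p = 0.236). Swarna drought replicate 1 was the highest of its group for both, and without it the log2 fold change of LOC_Os07g01370 went from -1.95 to 0.14.

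LOC_Os07g22770 encodes an AP2 domain protein that controls floral organ identity. It had 53.2, 141, 38.2 and 61.7 normalized counts in the DTY-IL drought libraries and 18.2, 32.9, 13.8 and 4.42 in the Swarna drought libraries. The groups did not overlap, and the log2 fold change of 2.08 ± 0.57 (SE) did not pass (adjusted p = 0.0502). DESeq2 gave an adjusted p of 0.0047 and the stricter filter on low counts one of 0.0444. In control the genotypes overlapped, at 25.5 to 99.1 and 49.6 to 65.1 counts. From control to drought it fell in Swarna, by a log2 fold change of -1.68 ± 0.60 (SE, adjusted p = 0.0333), and the change in DTY-IL was 0.27 ± 0.53 (SE, adjusted p = 0.727). The difference between these changes gave an adjusted p of 0.345.

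**Figure D4:**
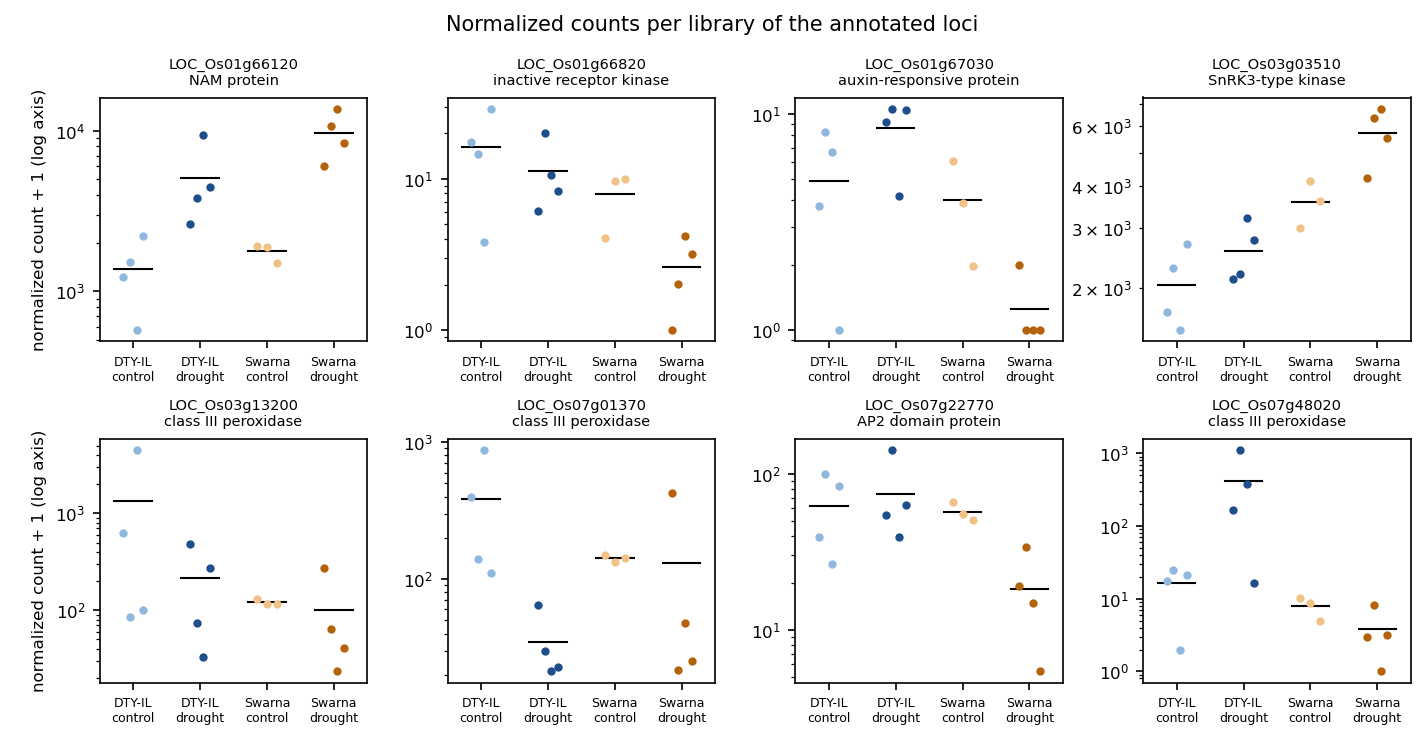
Normalized counts plus 1 (log axis) of the 8 annotated loci in each of the 15 libraries, by genotype and treatment. Points are libraries and horizontal lines are group means. Under drought LOC_Os03g03510 is lower and LOC_Os07g48020, LOC_Os07g22770, LOC_Os01g66820 and the auxin-responsive LOC_Os01g67030 are higher in every DTY-IL library than in every Swarna library.

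LOC_Os07g48020 lay within a run of 5 adjacent tested loci, LOC_Os07g47970 to LOC_Os07g48030, all of which were higher in DTY-IL under drought. On chromosome 7 as a whole, the run included, 2.34% of tested genes were DEGs. The 5 differed in how they came to be higher. The first of the run was higher in DTY-IL in both conditions, with 41.9 to 56.2 normalized counts in DTY-IL drought and 3.31 to 10.6 in Swarna drought, and 45.5 to 75.2 and 0.963 to 2.97 in control. Its log2 fold change was 3.03 ± 0.36 under drought and 4.94 in control.

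The locus after it had 399, 487, 397 and 413 normalized counts in the DTY-IL drought libraries and 17.2, 25.7, 21.2 and 12.1 in the Swarna drought libraries. In control the counts were 188 to 303 and 129 to 167. The level was thus higher under drought than in control in every DTY-IL library and lower in every Swarna library. Its log2 fold change was 4.46 ± 0.24 under drought (adjusted p = 3.4e-08) and 0.69 in control (adjusted p = 0.220), and the difference of 3.78 ± 0.31 (SE) had the lowest p of all interaction tests (adjusted p = 2.0e-04).

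The third locus had a pattern across libraries like that of the peroxidase, with 20.5, 150, 50.9 and 8.37 normalized counts in DTY-IL drought and at most 2.13 in Swarna drought. Both were highest in DTY-IL drought replicate 2 and lowest in replicate 4. The other loci of the run have no annotation here, and whether they are similar copies that share reads was not tested. The last of the run was lower under drought than in control in both genotypes, from 26.4 to 73.4 down to 2.09 to 9.55 counts in DTY-IL and from 19.8 to 30.5 down to 0 in all 4 Swarna libraries.

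**Figure D5:**
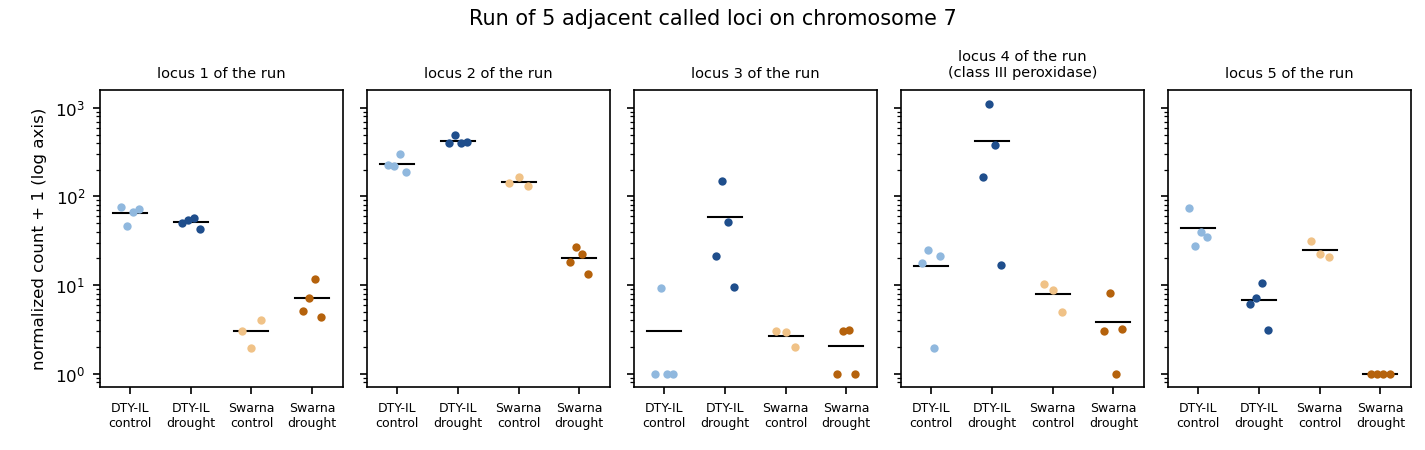
Normalized counts plus 1 (log axis) of the 5 adjacent DEGs LOC_Os07g47970 to LOC_Os07g48030 in each of the 15 libraries, in locus order from left to right. Locus 4 is the peroxidase LOC_Os07g48020, and the others have no annotation here. Points are libraries and horizontal lines are group means. All 5 are higher in every DTY-IL drought library than in every Swarna drought library, and locus 1 alone was also called in control.

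Whether the genotype difference itself differed between drought and control was tested in the same fit as an interaction. It passed for 20 genes (0.0594% of those tested) on the adjusted p-value, while 4149 genes (12.3%) had an unadjusted p below 0.05. Of the 20 genes 17 were drought DEGs. Among the 854 DEGs called under drought alone, 15 passed and 556 (65.1%) had an unadjusted p below 0.05. Among the 277 called in both conditions, 2 passed and 59 (21.3%) had an unadjusted p below 0.05. The drought libraries that chose these DEGs also enter the interaction.

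The 20 genes lay on 8 chromosomes, 5 of them on chromosome 1 and 4 on chromosome 4. The genotype difference was more positive under drought in 11, and all of these had lower fitted levels under drought than in control in Swarna. It was more negative in 9, and all of these had higher fitted levels under drought in Swarna. The size of the log2 change from control to drought was larger in Swarna in 18 of the 20 and larger in DTY-IL in 2, with medians of 2.70 and 0.81. The change in Swarna passed in 19 and that in DTY-IL in 14. The interaction equals the change in DTY-IL minus that in Swarna, and the same libraries chose the 20 genes. These directions and sizes follow in part from that choice and are given as a description. The interaction ranged in size from 0.93 to 5.44 on the log2 scale.

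A pair of loci on chromosome 11, in the window LOC_Os11g32500 to LOC_Os11g34824, had the next lowest p. One had 67.9 to 110 normalized counts in DTY-IL drought and 0 to 2.13 in Swarna drought, against 167 to 228 and 64.4 to 102 in control. Its genotype difference was larger under drought by 5.15 ± 0.60 (SE) on the log2 scale (adjusted p = 0.0093). The other had 59.3 to 117 and 0 to 2.21 under drought and 151 to 215 and 56.5 to 70.1 in control, a difference of 5.44 ± 0.69 (SE, adjusted p = 0.0173). In both, the levels were lower under drought than in control in either genotype.

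The number of drought DEGs with an interaction was not stable. It was 17 here, 2 without Swarna drought replicate 3, Swarna control replicate 1 or Swarna control replicate 2, 0 with all 16 libraries and 326 with DESeq2. With the 16 libraries 436 genes were DEGs under drought.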

How the data were processed

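RNA of whole panicles was sequenced on an Illumina HiSeq instrument. The authors trimmed the reads with Trimmomatic, estimated transcript counts with Salmon 0.7.2 against the RGAP 7 transcripts of Nipponbare (IRGSP1.0) and used tximport to bring them to genes. The deposited values are these estimated counts, whole numbers without normalization. The authors compared the genotypes under drought with DESeq2 (version 1.14.1). Their result tables were not used, and the main fit here used edgeR instead.

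Columns name a group and a number, so replicate numbers are those of the columns and not those in the sample titles. Swarna control replicate 3, the outlier that the study removed, was left out of the main fit. In R 4.3.3, genes whose counts over the 15 libraries summed to at least 10 were fitted in edgeR 4.0.16 with TMM factors, all 4 groups in 1 model, and tested with the quasi-likelihood test and Benjamini-Hochberg adjustment over all genes tested. Standard errors are the absolute log2 fold change divided by the square root of the F statistic. Depth was 24677520 to 31080042 counts per library. A count of 3 per library was taken as the limit where a group had none. DESeq2 1.42.0, RLE factors, filterByExpr, no filter, all 16 libraries, the 2 groups alone, a test against a log2 fold change of 1, windows of 50 loci and leaving out each library were the alternatives. Figures were drawn with matplotlib 3.10.9.

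The comparison, the gene lists and the alternatives were chosen with earlier results of these data known. The reference table used here pairs none of the loci with names, so 34 lists by function and the marker lists for tissues matched no locus and gave no result, and the tissue could not be checked by its markers. Named loci were 8 that the study's text names for the panicle, the qDTY regions or, for the peroxidases, the flag leaf, and, of the 12 largest differences in each direction among DEGs with a mean of at least 50 counts and no overlap, the first 2, since the others have no annotation here. Loci of the run on chromosome 7 and of the interaction were chosen after their values were seen. Replicates were separate pots. The authors arranged the pots in randomized complete blocks, the labels name no block, and no block term entered the fit.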

Additional observations from a re-analysis of the deposited data

Results flagged for a closer look

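Of 35 sets of 4 values examined (the named loci and the total counts in the groups of 4 libraries), 5 had 1 library far from the other 3. The limit used flags about 1 in 20 sets of normally distributed values. That rate need not hold here, since the counts were not log-transformed and the sets share libraries. The peroxidase LOC_Os03g13200 had 4542 normalized counts in DTY-IL control replicate 3 against 84.6 to 621 in the others, and 273 in Swarna drought replicate 1 against 22.3 to 62.7. LOC_Os07g01370, also a peroxidase, had 428 counts in Swarna drought replicate 1 against 20.6 to 46.7. LOC_Os11g34790 had 1137 in DTY-IL drought replicate 2 against 934 to 962. The total of DTY-IL control replicate 4 was 26308434 counts, against 29897619 to 30031096 in the other DTY-IL controls.

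The genotype difference differed between drought and control in 20 genes, by the interaction test of edgeR. The lowest p belonged to the second locus of the run on chromosome 7, with a difference of 3.78 on the log2 scale, higher in 4 of 4 DTY-IL drought libraries than in any Swarna drought library.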

How the results depend on the processing

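Under DESeq2 there were 1951 DEGs (1205 higher, 746 lower), 326 with an interaction and 679 in windows with at least 10% DEGs, against 1131, 705, 426, 17 and 260. With all 16 libraries there were 436 (261 and 175), 0 with an interaction, 72 on chromosome 4 against 178, and 68 in such windows. The fit of the 2 drought groups alone gave 657 (384 and 273), 117 on chromosome 4 and 124 in such windows. The test against a log2 fold change of 1 gave 305 (189 and 116), 160 called in both conditions against 277, 3 with an interaction, 68 on chromosome 4 and 66 in such windows. Without a filter such windows held 136. RLE factors, filterByExpr and windows of 50 loci moved no count by over 1.5 times, with 1123 and 1153 DEGs for the first pair.

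Leaving out one library gave 626 to 1538 DEGs, 390 to 924 higher, 236 to 614 lower, 209 to 268 called in both conditions, 2 to 23 with an interaction, 96 to 218 on chromosome 4 and 111 to 409 in windows with at least 10%. The lowest count of DEGs was without Swarna drought replicate 3 and the highest without DTY-IL control replicate 3. Lower DEGs also fell to 271 without DTY-IL drought replicate 1. The windows held 140 DEGs in the fit lacking DTY-IL drought replicate 1 and 160 in that lacking Swarna drought replicate 4. Those with an interaction numbered 10 and 9 when drought replicate 2 of DTY-IL or of Swarna was dropped, and 2 to 5 without any 1 of DTY-IL control replicates 1, 2 and 4, the 3 Swarna controls, DTY-IL drought replicate 1 and Swarna drought replicate 3. The cause was not tested.

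Of the 277 DEGs called in both conditions 187 (67.5%) were called in every fit, and 69 of the 854 (8.08%) called under drought alone. LOC_Os07g01370, which did not pass, ranged from -2.44 to 0.14 and reversed to 0.14 without Swarna drought replicate 1. LOC_Os01g67030 did not pass with all 16 libraries (adjusted p = 0.0793) or in the test against a log2 fold change of 1 (0.129) and was removed by filterByExpr, nor did LOC_Os03g03510 in the latter. The lists by function could not be tried under any alternative. No paired analysis was possible because the numbers of the columns are not the pot numbers of the samples.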
